A study of Mus musculus with 5 samples.

Results

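The ADAM and ADAMTS metalloproteinases were taken as every gene of the cellular gene table whose symbol begins with Adam or Adamts followed by a digit. This gave 52 of 21259 genes, 33 ADAM and 19 ADAMTS genes. The rule uses names and no measured value, but the family was chosen with earlier results of these data known. They were measured by RNA-seq in NIH3T3, an established mouse embryonic fibroblast line, here stably expressing a dCas9 CRISPR activator, a Cas9 protein unable to cut DNA that boosts transcription at the sites its guide RNA (sgRNA) matches. The L1_sgRNA group held 3 libraries made 48 h after transfection of plasmids encoding a sgRNA against LINE1, a retrotransposon family present in many genomic copies, and the Scr_sgRNA group held 2 libraries made 48 h after transfection of scramble sgRNA plasmids. Both groups carry the activator, and the labels do not say whether the line is a single clone or whether libraries of a group came from separate cultures. P-values therefore cover only library-to-library spread, which may be technical.

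ADAM proteins are membrane-anchored, with a prodomain, a metalloproteinase domain and a disintegrin domain, and their active members cut the outer parts off growth factors, receptors and adhesion proteins, a step called shedding. Many ADAM genes of the mouse are known mainly from the testis, where their products sit on sperm and several have lost the residues that hold the catalytic zinc. ADAMTS proteins are secreted, carry thrombospondin type 1 repeats and act on the extracellular matrix: some mature procollagens, some cut aggrecan and versican, and ADAMTS13 cuts von Willebrand factor. Fibroblasts are a main source of several ADAMTS proteins.

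The zinc site shows how the members that changed most differ in kind. In active ADAM and ADAMTS proteases 3 histidine codons, a glutamate codon and a glycine or asparagine codon lie at fixed spacing within 33 bases. The site was sought in frame in the longest coding sequence of each gene (GENCODE M21, GRCm38). Of the chromosome 8 genes that lie side by side, Adam9 holds it at chr8:24990326-24990358, and the aligned stretches of its neighbours are chr8:24901501-24901533 in Adam32, chr8:24806449-24806481 in Adam5, chr8:24707418-24707450 in Adam3 and chr8:24647848-24647880 in Adam18, all on the minus strand. These 5 are shown because Adam3 and Adam18 had the largest rises of all members and the genes beside them did not pass the test; capitals mark codons that match the site.
Adam18: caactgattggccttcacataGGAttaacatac
Adam3: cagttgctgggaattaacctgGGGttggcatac
Adam5: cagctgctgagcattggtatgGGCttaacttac
Adam32: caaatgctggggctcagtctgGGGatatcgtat
Adam9: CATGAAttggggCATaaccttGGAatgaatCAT
Only the glycine codon was kept in Adam18, Adam3, Adam5 and Adam32, in an alignment in which their translated coding sequences were 31.4% to 37.5% identical to that of Adam9. All 5 site codons were present in Adam9.

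The same site is shown for the ADAMTS members that rose, Adamts4 and Adamts13. It is also shown for Adamts5, Adamts2 and Adamts14, which had the smallest adjusted p of the ADAMTS members that fell. In each the 33 bases are joined across an intron, so the genomic span is longer: chr1:171253210-171253915 for Adamts4 and chr2:26978681-26981084 for Adamts13 on the plus strand, chr16:85878015-85887826 for Adamts5 on the minus strand, chr11:50775403-50776134 for Adamts2 on the plus strand and chr10:61225465-61227123 for Adamts14 on the minus strand.
Adamts4: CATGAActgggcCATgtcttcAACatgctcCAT
Adamts13: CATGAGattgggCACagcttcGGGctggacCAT
Adamts5: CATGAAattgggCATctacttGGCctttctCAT
Adamts2: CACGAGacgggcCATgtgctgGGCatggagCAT
Adamts14: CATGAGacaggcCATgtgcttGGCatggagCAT
The fourth matching codon is asparagine in Adamts4 and glycine in the other four, so members of both forms were among those that changed. Over the families, the glycine form was found in 20 ADAM and 13 ADAMTS genes and the asparagine form in 5 ADAMTS genes (Adamts1, Adamts4, Adamts9, Adamts15 and Adamts20). Neither form was found in 13 ADAM genes or in Adamts8, which says only that these codons are not in the coding sequence used. Of the 10 tested ADAMTS genes with the glycine form 7 fell and 1 rose, with a median log2 change of -0.39. Among the 3 tested genes with the asparagine form 1 rose and none passed as lower, with a median of -0.13. The other 2, Adamts1 and Adamts9, did not pass, though every L1_sgRNA library was below both Scr_sgRNA libraries. Over all tested genes 18.2% rose and 25.4% fell. The difference between the forms was not tested.

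Levels are normalised read counts as deposited, given per library in the order of the replicate numbers, with means ± SD over n = 3 L1_sgRNA and n = 2 Scr_sgRNA libraries. Changes are log2 of L1_sgRNA over Scr_sgRNA, on log2(value + 1), with standard errors (SE) and Benjamini-Hochberg adjusted p from limma over all 14337 tested genes; a gene passed below 0.05. Recovered depth was 35996907 to 45596490 reads in the L1_sgRNA libraries and 30681384 to 36726985 reads in the Scr_sgRNA libraries. The members together took 0.134% to 0.138% of these reads in L1_sgRNA and 0.137% to 0.141% in Scr_sgRNA.

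Of the 52 members, 31 averaged 10 or more normalised reads and were tested, 18 had reads but a lower mean, and Adam7, Adam28 and Adam29 had no read in any library. Among the 31 tested members 5 rose, 11 fell and 15 did not pass. That is 16.1% higher and 35.5% lower, beside 18.2% and 25.4% of all tested genes, or 51.6% called beside 43.5%. The median log2 change was -0.24 for the members and -0.06 for all tested genes. In all 16 members called, no L1_sgRNA library overlapped a Scr_sgRNA library; this also held for 6 of the 15 that did not pass and for 61.8% of all tested genes (24.6% with L1_sgRNA higher and 37.2% with it lower). Adam3, Adam18 and Adamts13 rose by a log2 change of at least 1, as did 7.47% of all tested genes, and no member fell by as much, as did 0.537%. Across all genes the direction of the calls moved with the scaling: 41.7% of calls were rises as deposited, against 53.2% with TMM factors and 60.6% with table totals. Among the members, those same scalings removed the call of Adam19 alone and gave 5 rises and 10 falls.

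**Figure D1:**
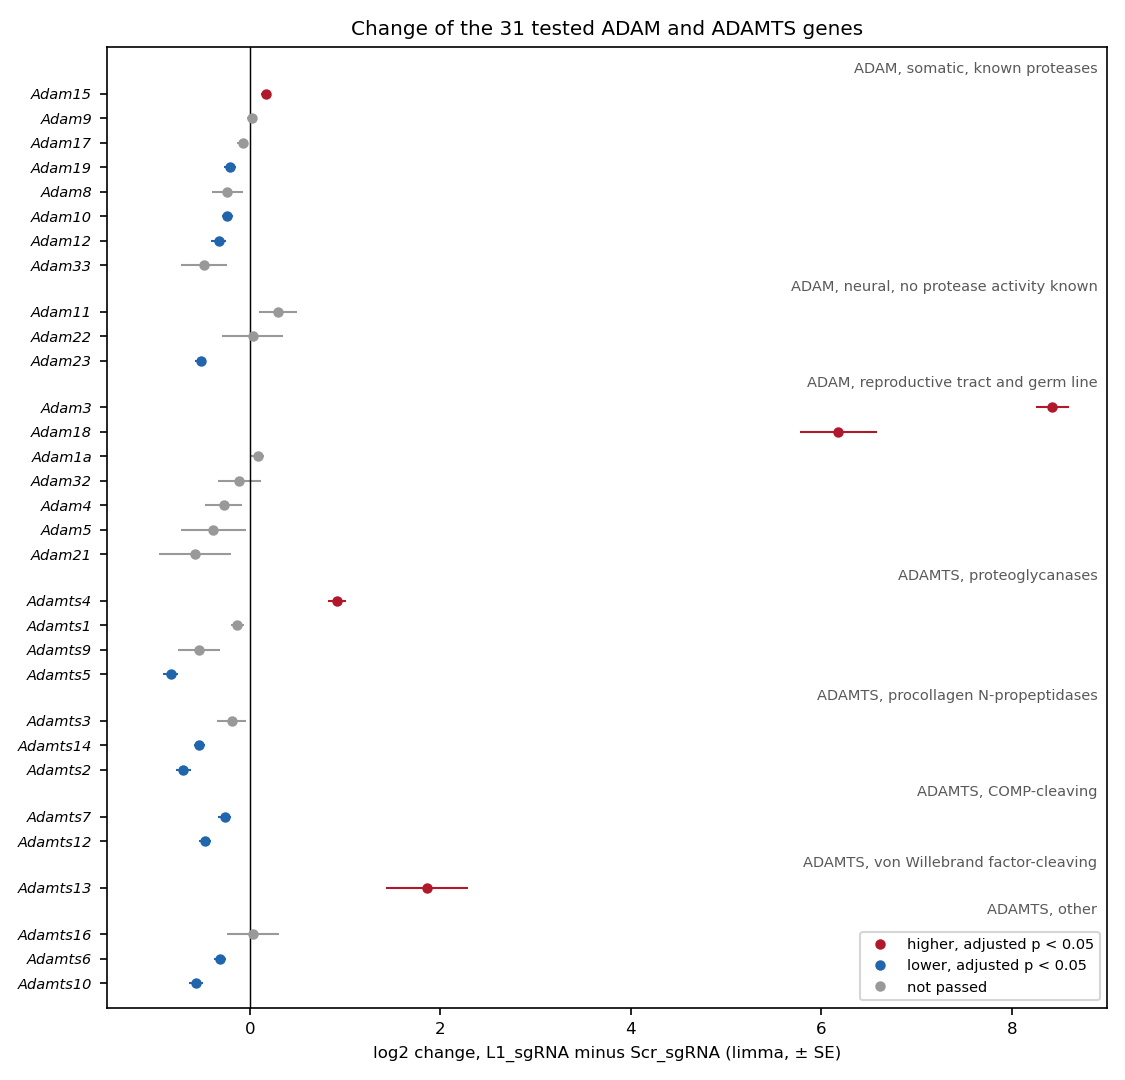
Log2 change of L1_sgRNA over Scr_sgRNA for the 31 tested members, with bars of 1 SE; colour shows whether the member passed at an adjusted p below 0.05 (limma). Adam3 at 8.43 and Adam18 at 6.18 stand far from the others, and the 11 members that fell lie between -0.21 and -0.83.

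The reproductive ADAM genes held the largest changes. Of 21 in the table, 7 were tested: Adam3 and Adam18 rose, none fell and 5 did not pass. Over all tested genes 18.2% rose and 25.4% fell. Adam3 encodes a sperm surface protein that mouse sperm need to enter the oviduct. It was at 1944, 2258 and 1872 in L1_sgRNA, against 6.42 and 3.64 in Scr_sgRNA. The groups were far apart, with 2519, 3340 and 2139 reads in the L1_sgRNA libraries and 6 and 4 reads in the Scr_sgRNA libraries. Its mean was 2024 ± 205 in L1_sgRNA and 5.03 ± 1.97 in Scr_sgRNA, a ratio of 402 (log2 8.43, SE 0.18, limma adjusted p = 3.0e-16).

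Adam18, another sperm ADAM, was at 116, 143 and 106 in L1_sgRNA, against 0 and 1.82 in Scr_sgRNA. The 482 reads of the 3 L1_sgRNA libraries stood against 2 reads in the Scr_sgRNA libraries. The ratio, scaled to normalised depth, was 125, with a 95% counting interval of 34.4 to 1036 that covers counting error only. The fitted log2 change was 6.18 (SE 0.41, limma adjusted p = 1.8e-09), and fell to 3.86 with a pseudocount of 8, while that of Adam3 was 7.29 there. Adam3, Adam5 and Adam18 share no run of 50 bases in their GENCODE M21 transcripts.

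Adam3 (chr8:24677225-24725852) and Adam18 (chr8:24602246-24674755), both on the minus strand, are next to each other with 2469 bp between them. Adam5, which begins 98.5 kb upstream of the start of Adam3 and ends 1240 bp from it, was at 14.7, 17.6 and 15.8 in L1_sgRNA, against 20.3 and 21.8 in Scr_sgRNA (log2 -0.38, SE 0.34, limma adjusted p = 0.395). Adam32 was at 47.1, 63.5 and 69.1 in L1_sgRNA, against 64.2 and 63.6 in Scr_sgRNA (log2 -0.11, SE 0.23, limma adjusted p = 0.720). Neither of these sperm-related genes passed; the groups overlapped for Adam32, and for Adam5 the L1_sgRNA libraries were the lower ones. On the other side of Adam18, Ido1, which encodes a tryptophan-degrading enzyme, lies 5236 bp away and was at 1.54, 0 and 2.63 in L1_sgRNA, against 0 and 1.82 in Scr_sgRNA.

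Within 500 kb of the start of Adam3 other genes moved in both directions. Plekha2, 377 kb upstream, averaged 716 ± 20.7 in L1_sgRNA and 303 ± 26.9 in Scr_sgRNA (log2 1.24, SE 0.094, limma adjusted p = 1.2e-08). Tcim, 287 kb downstream, averaged 204 ± 14.9 in L1_sgRNA and 423 ± 18.3 in Scr_sgRNA (log2 -1.05, SE 0.12, limma adjusted p = 1.9e-06). Between Adam3 and Plekha2, none of Adam5, Adam32, Adam9, Tm2d2 and Htra4 passed.

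**Figure D2:**
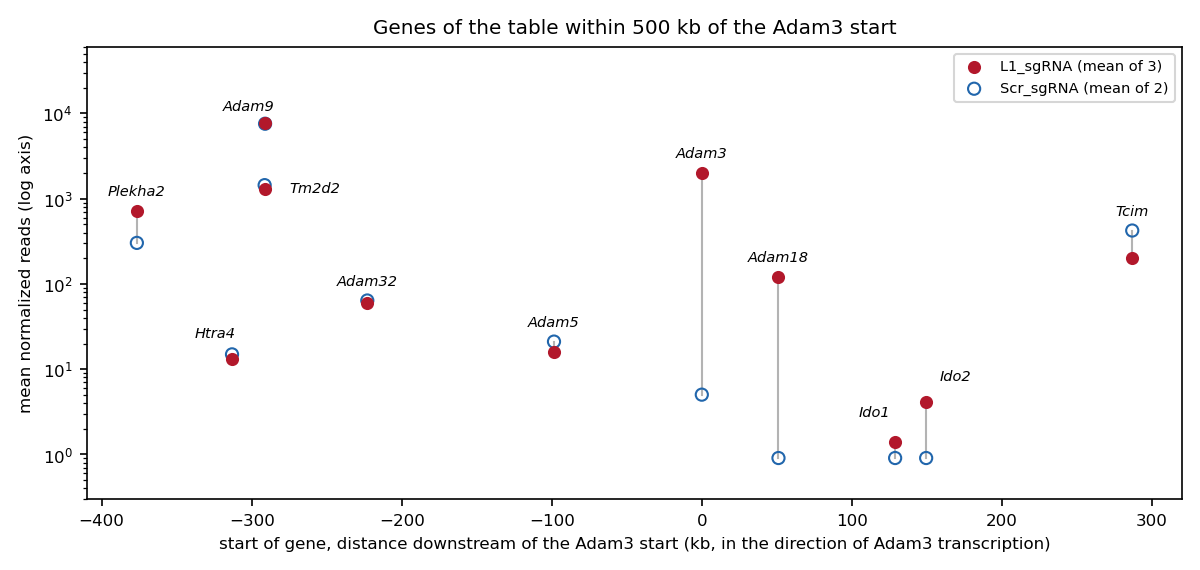
Mean normalised reads (log axis) in L1_sgRNA (filled) and Scr_sgRNA (open) for genes of the table within 500 kb of the start of Adam3, placed by the distance of their start in kb in the direction of Adam3 transcription. Adam3, at 2024 in L1_sgRNA and 5.03 in Scr_sgRNA, and Adam18 show long gaps between the groups, while Adam5, Adam32 and Adam9 lie close together in both.

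Among the remaining reproductive members, Adam1a was the highest, at 1449.8, 1598 and 1557 in L1_sgRNA, against 1502 and 1397 in Scr_sgRNA (log2 0.08, limma adjusted p = 0.349). It encodes a form of fertilin alpha, overlaps Tmem116 and Mapkapk5, and its groups overlapped. Adam4 and Adam21 did not pass either, and Adam4 lies inside Gm20498 and Cox16, both of which fell. Adam2, encoding fertilin beta, was below the level needed for the test, with 17 reads in L1_sgRNA and 4 in Scr_sgRNA. That is a ratio of 2.21 with a counting interval of 0.720 to 9.01. Adam20, Adam25 and Adam39 had identical values in every library and share 661 to 726 runs of 50 bases with each other, so they cannot be told apart; Adam26a and Adam26b were also identical.

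The presence of germ cells was read from 17 spermatid and spermatocyte markers. Their summed level was 915 to 1035 in L1_sgRNA and 1063 to 1134 in Scr_sgRNA. Of the 17, 12 were below the level needed for the test, and of 5 tested 1 rose and 2 fell. Over all tested genes 18.2% rose and 25.4% fell. The 5 tested made up most of the sum. Sycp1 fell, at 149 ± 24.3 in L1_sgRNA and 231 ± 15.0 in Scr_sgRNA. Gapdhs also fell, at 223 ± 21.4 in L1_sgRNA and 288 ± 12.6 in Scr_sgRNA. Sycp3, at 378 ± 41.1 in L1_sgRNA and 444 ± 73.2 in Scr_sgRNA, did not pass, nor did Prm1. Tnp1, encoding a spermatid transition protein, averaged 1.03 ± 0.45 in L1_sgRNA and had no read in Scr_sgRNA, and Spaca1, encoding an acrosome protein, had no read in L1_sgRNA and averaged 0.909 ± 1.29 in Scr_sgRNA. The marker that rose was Izumo1, the sperm protein that binds the egg, at 126.5 ± 13.2 in L1_sgRNA and 12.9 ± 2.89 in Scr_sgRNA (log2 3.20, SE 0.24, limma adjusted p = 8.9e-09); it overlaps Rasip1. Of 9 genes known in mice to be needed for ADAM3 on sperm, 3 were tested, none rose and Tpst2 fell (log2 -0.33, limma adjusted p = 1.3e-04). The remaining 6, including the chaperone genes Clgn and Pdilt, were below the level needed for the test.

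The somatic ADAM proteases included Adam9, Adam10 and Adam15, which had among the highest levels of all members. Of 9, 8 were tested: Adam15 rose, Adam10, Adam12 and Adam19 fell, and Adam8, Adam9, Adam17 and Adam33 did not pass. The shares over all tested genes were 18.2% higher and 25.4% lower. Adam9, which cuts several growth factor precursors, was at 7736, 7618 and 7702 in L1_sgRNA, against 7346 and 7768 in Scr_sgRNA. Its groups overlapped (log2 0.02, SE 0.051, limma adjusted p = 0.722), although it lies in the same run of genes as Adam3.

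Adam10, which cuts Notch receptors and the amyloid precursor protein, was at 4256, 4122 and 4219 in L1_sgRNA, against 4675 and 5247 in Scr_sgRNA. Every L1_sgRNA library was below both Scr_sgRNA libraries, and the log2 change was -0.24 (SE 0.058, limma adjusted p = 0.0030). Adam17, the protease that releases tumour necrosis factor, was at 2705, 2577 and 2735 in L1_sgRNA, against 2705 and 2919.7 in Scr_sgRNA. Its groups overlapped and it did not pass (log2 -0.07, limma adjusted p = 0.334); it overlaps Iah1, which did not pass either.

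Adam15, whose product also binds integrins, was at 4703, 4473 and 4767 in L1_sgRNA, against 4205 and 4048 in Scr_sgRNA. The groups did not overlap and the rise was 0.17 (SE 0.054, limma adjusted p = 0.016). Adam12, a protease of muscle and fat precursors, averaged 1650.4 ± 75.7 in L1_sgRNA and 2078 ± 274 in Scr_sgRNA (log2 -0.33, limma adjusted p = 0.0021). Adam19, a neuregulin-processing relative, was at 2897, 3055 and 2786 in L1_sgRNA, against 3124 and 3621 in Scr_sgRNA (log2 -0.21, limma adjusted p = 0.017). These calls depended on single libraries: without Scr_sgRNA replicate 2 Adam10, Adam12, Adam15 and Adam19 no longer passed, at adjusted p of 0.055, 0.060, 0.083 and 0.264. Adam15 and Adam19 also lost their calls without L1_sgRNA replicate 1 or 3, and Adam19 with either of the other scalings and in edgeR and DESeq2 (adjusted p 0.071 and 0.090).

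Of the neural ADAM genes, whose products are receptors rather than proteases, Adam23 fell while Adam11 and Adam22 did not pass. Adam23 (chr1:63445891-63596276), a receptor for LGI1 at synapses, was at 2549, 2514 and 2431 in L1_sgRNA, against 3372 and 3777 in Scr_sgRNA. All 3 L1_sgRNA libraries were lower, by 30.1% on average (log2 -0.51, SE 0.060, limma adjusted p = 2.7e-06). Among the LGI ligands of this group 2 of 4 were tested. Lgi3 rose, at 26.0 ± 9.08 in L1_sgRNA and 2.43 ± 0.41 in Scr_sgRNA (log2 2.92, SE 0.45, limma adjusted p = 5.9e-05), and Lgi4 did not pass.

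Most tested ADAMTS genes fell. Of 19, 13 were tested: Adamts4 and Adamts13 rose, 7 fell and 4 did not pass, with a median of -0.31. Of all tested genes 18.2% rose and 25.4% fell, with a median of -0.06. In 10 of the 13 every L1_sgRNA library was below both Scr_sgRNA libraries, beside 37.2% of all tested genes. The 19 summed to 12323, 11849 and 11920.4 in L1_sgRNA, against 15654 and 15334 in Scr_sgRNA, a difference of -22.4%. In bulk RNA, fewer cells that express a gene and less of its RNA per cell cannot be told apart.

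The procollagen N-propeptidases, which trim fibrillar procollagens so that they can form fibrils, gave 2 falls of 3 tested, beside 25.4% of all tested genes. Adamts2 (chr11:50602084-50807573) was at 792, 812 and 726 in L1_sgRNA, against 1217 and 1305 in Scr_sgRNA, and fell by 38.4% (log2 -0.70, SE 0.077, limma adjusted p = 1.4e-06). Adamts14 (chr10:61197112-61273438) averaged 1568 ± 0.13 in L1_sgRNA and 2266 ± 22.7 in Scr_sgRNA, and fell by 30.8% (log2 -0.53, SE 0.058, limma adjusted p = 1.3e-06). The groups of both were well apart. Adamts3 was at 129, 151 and 139 in L1_sgRNA, against 159.5 and 158 in Scr_sgRNA, and did not pass (log2 -0.19, limma adjusted p = 0.333). The 3 genes summed to 2433 to 2531 in L1_sgRNA and 3626 to 3745 in Scr_sgRNA.

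RefSeq promoter sequence (GRCm38.p6) was at hand for 27 of the 52 members. The 250 bases upstream of Adamts2 (chr11:50601835-50602084, plus strand) and Adamts14 (chr10:61273420-61273669, minus strand) are shown because these enzymes share a function and both fell, and that of Adamts13 (chr2:26973166-26973415, plus strand) because it rose. Capitals mark GC boxes (GGGCGG on either strand).
Adamts13: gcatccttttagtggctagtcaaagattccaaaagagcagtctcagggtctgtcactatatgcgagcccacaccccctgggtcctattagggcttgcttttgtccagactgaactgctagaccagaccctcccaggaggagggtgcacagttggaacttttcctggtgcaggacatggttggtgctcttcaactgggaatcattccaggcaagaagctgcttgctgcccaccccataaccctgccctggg
Adamts2: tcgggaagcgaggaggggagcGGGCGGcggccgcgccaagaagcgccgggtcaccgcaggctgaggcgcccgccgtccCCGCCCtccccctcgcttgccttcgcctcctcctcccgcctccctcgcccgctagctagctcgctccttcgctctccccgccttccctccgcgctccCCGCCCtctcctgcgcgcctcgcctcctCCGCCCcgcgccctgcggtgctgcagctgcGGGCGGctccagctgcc
Adamts14: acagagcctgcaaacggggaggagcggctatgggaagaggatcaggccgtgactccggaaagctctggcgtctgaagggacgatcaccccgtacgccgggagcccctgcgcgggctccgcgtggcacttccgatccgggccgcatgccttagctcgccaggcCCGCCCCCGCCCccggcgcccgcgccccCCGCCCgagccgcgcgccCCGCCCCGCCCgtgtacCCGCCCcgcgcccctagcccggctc
GC boxes were present in Adamts2 and Adamts14, with 34 and 35 CpG dinucleotides, and absent from Adamts13, with 1, where the median over all promoters is 6. Other called members differed from this: GC boxes were present in Adam15, which rose, and Adam10, which fell, with 18 and 29 CpG dinucleotides. They were absent from Adam23, Adam19 and Adamts12, which fell, with 27 CpG dinucleotides in Adam23 and 6 in Adamts12. The promoter entries of Adam19 held 4 to 7, and the entry at chr11:46127654-46127903 lies inside the gene. On either strand, GGGCGG was found in 11 of 29 member promoters and in 32.7% of all 32851 promoters, so its presence does not set Adamts2 and Adamts14 apart. The interferon-stimulated response element was in none of the 29 and in 2.98% of all, and the AP-1 letters TGANTCA were in 4 of the 29 and in 6.75% of all.

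Among the proteoglycanases, which cut aggrecan and versican, the aggrecanases Adamts4 and Adamts5 moved in opposite directions. Adamts4 (chr1:171250421-171260637) was at 756, 667 and 648 in L1_sgRNA, against 350.1 and 380.0 in Scr_sgRNA. All L1_sgRNA libraries were higher, with means of 691 ± 57.6 in L1_sgRNA and 365 ± 21.1 in Scr_sgRNA (log2 0.92, SE 0.097, limma adjusted p = 7.7e-07). Adamts5 (chr16:85856173-85901828) was at 665, 597 and 597 in L1_sgRNA, against 1067 and 1136 in Scr_sgRNA, and fell by 43.8%, the most of any tested member (log2 -0.83, SE 0.082, limma adjusted p = 3.5e-07).

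Adamts1 and Adamts9, the other tested versican-cutting genes, did not pass. Adamts9 was at 44.8, 48.7 and 57.8 in L1_sgRNA, against 73.9 and 71.8 in Scr_sgRNA, so the groups did not overlap (log2 -0.53, limma adjusted p = 0.061). Adamts8 was too low for the test, at 8.49, 5.41 and 7.0 in L1_sgRNA, against 4.28 and 3.64 in Scr_sgRNA. Its 27 reads in L1_sgRNA and 8 in Scr_sgRNA gave a ratio of 1.75 with a counting interval of 0.774 to 4.46, so no difference was detectable at this depth.

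**Figure D3:**
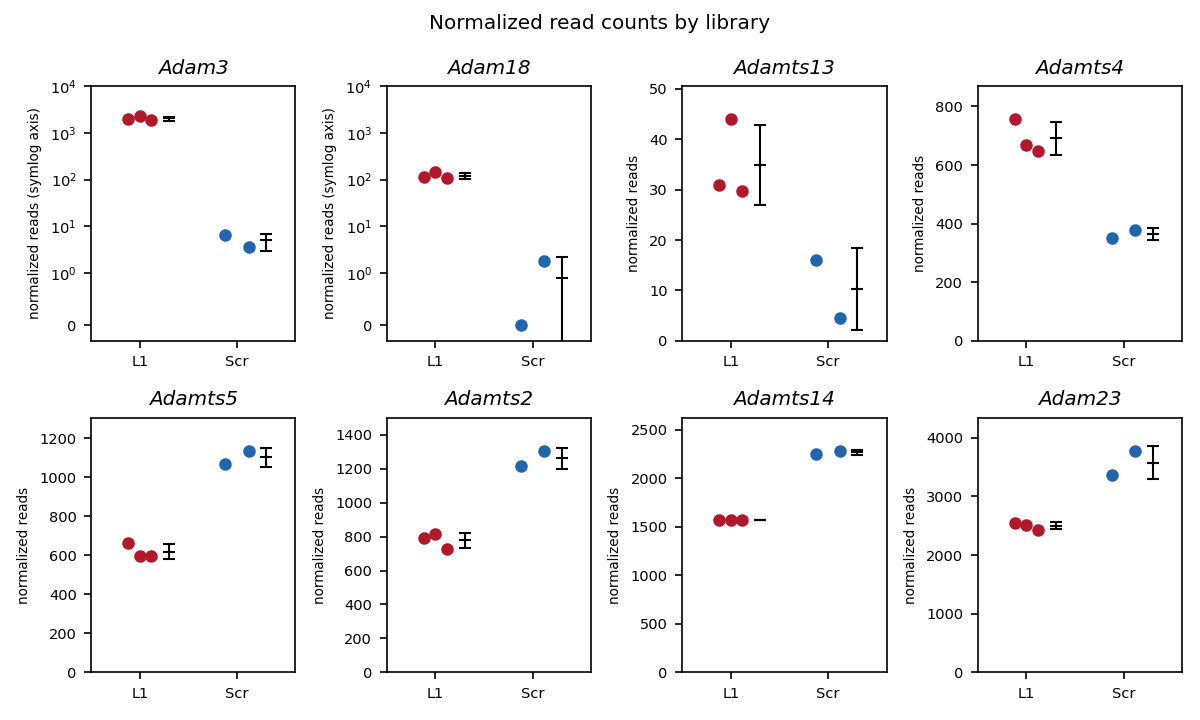
Normalised read count of 8 members in each library (points; symlog axis for Adam3 and Adam18, linear axes from 0 for the others), with L1_sgRNA left of Scr_sgRNA and mean ± SD beside the points. Adam3, Adam18, Adamts13 and Adamts4 are higher in every L1_sgRNA library, and Adamts5, Adamts2, Adamts14 and Adam23 are lower in every L1_sgRNA library.

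Adamts13 (chr2:26973416-27009628), made mainly by the liver and known for trimming von Willebrand factor, was at 30.9, 43.9 and 29.8 in L1_sgRNA, against 16.1 and 4.54 in Scr_sgRNA. The Scr_sgRNA libraries differed widely but both lay below every L1_sgRNA library. The means were 34.8 ± 7.89 in L1_sgRNA and 10.3 ± 8.14 in Scr_sgRNA (log2 1.86, SE 0.43, limma adjusted p = 0.0020). The change was 1.05 without Scr_sgRNA replicate 2 and 2.67 without Scr_sgRNA replicate 1. Its neighbours Rexo4 and Cacfd1, 9029 and 297 bp away, did not pass, nor did Fcer1g and B4galt3 on either side of Adamts4.

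The COMP-cleaving genes both fell: Adamts7 averaged 1098 ± 37.3 in L1_sgRNA and 1316 ± 31.7 in Scr_sgRNA (log2 -0.26, limma adjusted p = 0.0051), and Adamts12 averaged 1184 ± 29.6 in L1_sgRNA and 1639 ± 88.8 in Scr_sgRNA (log2 -0.47, limma adjusted p = 2.3e-05). Adamts7 overlaps Tbc1d2b on the other strand, which also fell (log2 -0.32). Adamts10, which acts on fibrillin microfibrils, was at 802, 860.4 and 804 in L1_sgRNA, against 1251 and 1178 in Scr_sgRNA. Its relative Adamts6 was at 3972, 3688 and 3959 in L1_sgRNA, against 5139 and 4509.5 in Scr_sgRNA. Both fell with groups apart (log2 -0.56 and -0.31, limma adjusted p = 9.9e-06 and 5.8e-04). Adamts16 did not pass.

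Adamts19 met the rule for low genes described library by library, which takes only those higher in every L1_sgRNA library. It was at 6.94, 9.46 and 10.5 in L1_sgRNA, against 3.21 and 0 in Scr_sgRNA. Its 35 reads in L1_sgRNA and 3 in Scr_sgRNA gave a ratio of 6.06 with a counting interval of 1.91 to 30.8. As the rule fixed the direction, this interval does not test a difference. Adamts20 went the other way, with 2 reads in L1_sgRNA and 8 in Scr_sgRNA, a ratio of 0.130 with an interval of 0.0134 to 0.650. It was named after the values were seen, so its interval does not test a difference either.

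Per kilobase of exon, a scale on which genes can be compared, the order in Scr_sgRNA began with Adam9, Adam10, Adam15, Adamts6 and Adam19. Adam9 had 1868 normalised reads per kb in L1_sgRNA and 1836 in Scr_sgRNA, and Adam10 had 855 in L1_sgRNA and 1009.7 in Scr_sgRNA. In L1_sgRNA, Adam3 reached 688 per kb, between Adam15 at 756 and Adamts6 at 497, whereas in Scr_sgRNA Adam3 had 1.71 per kb, beside Adam22 at 1.45. Adam18 had 51.4 per kb in L1_sgRNA and 0.39 in Scr_sgRNA.

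**Figure D4:**
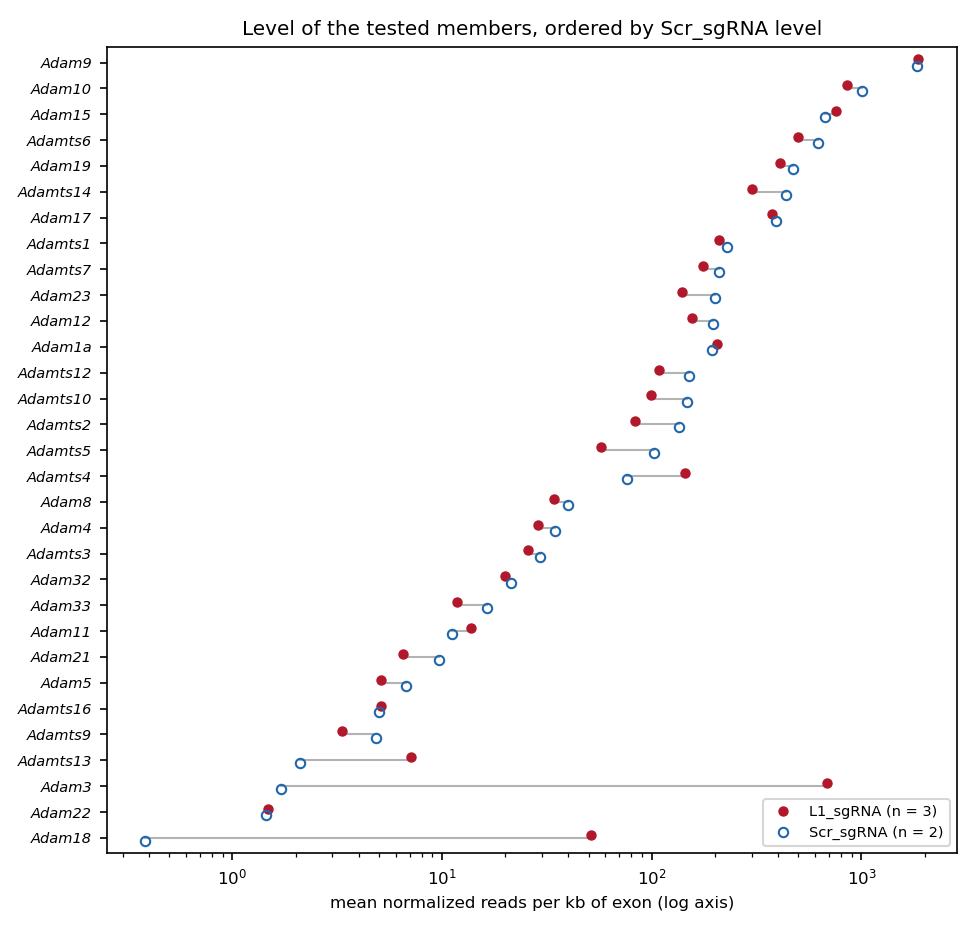
Mean normalised reads per kb of exon (log axis) of the tested members, with L1_sgRNA and Scr_sgRNA values side by side. Adam3, at 688 in L1_sgRNA and 1.71 in Scr_sgRNA, is far lower in the Scr_sgRNA order, and Adam9 is highest in both groups.

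Genes that act with these proteases were read from lists of 81 genes, of which 65 were tested, 11 rose and 29 fell. The lists too were chosen with earlier results of these data known. Over all tested genes 18.2% rose and 25.4% fell, with a median of -0.06. Among inhibitors, Timp3, the tissue inhibitor with the widest action on ADAM and ADAMTS proteases, averaged 5444 ± 130.2 in L1_sgRNA and 7049.8 ± 402 in Scr_sgRNA (log2 -0.37, limma adjusted p = 3.0e-05). Reck and Timp1 also fell and Timp2 did not pass, giving 3 falls of 4 tested. Of 5 tested ADAMTS-like and papilin genes, whose products resemble ADAMTS proteins without the protease domain, Adamtsl4 fell and 4 did not pass.

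Partners that carry ADAM10 and ADAM17 through the cell, with the convertases that remove their prodomains, gave 5 rises and 2 falls of 12 tested, with a median of 0.10 beside -0.06 over all tested genes. The rises were largest in tetraspanins that bind ADAM10. Tspan10 averaged 97.2 ± 4.64 in L1_sgRNA and 13.9 ± 1.6 in Scr_sgRNA (log2 2.73, limma adjusted p = 7.5e-08). Tspan17 averaged 2489 ± 59.8 in L1_sgRNA and 1129 ± 128 in Scr_sgRNA (log2 1.14, limma adjusted p = 6.9e-10), and Tspan33 also rose (log2 1.25). Tspan5, of the same group, fell (log2 -0.39, limma adjusted p = 1.3e-05). Of the iRhom genes, which escort ADAM17, Rhbdf2 rose by 0.33 and Rhbdf1 fell by 0.22 on the log2 scale.

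Of 24 tested substrates shed by ADAM proteases, 3 rose and 12 fell, beside 18.2% and 25.4% of all tested genes, with a median of -0.24 beside -0.06. Cx3cl1, a membrane-bound chemokine, fell (log2 -0.67, limma adjusted p = 1.9e-06), as did Vcam1, Sdc4 and the growth factor gene Ereg, at -0.59, -0.56 and -0.56. The rises were Notch4, Mertk and App, at 0.81, 0.54 and 0.25. Of 15 tested matrix substrates of ADAMTS proteases 10 fell, by 24.9% to 47.1%, and Ncan and Vwf rose, with a median of -0.60. Those with the smallest p were Dcn, Thbs2, Thbs1 and Col3a1, which fell, at -0.92, -0.68, -0.74 and -0.60. Col1a1, a substrate of ADAMTS2 once translated, fell (log2 -0.70, limma adjusted p = 6.2e-07), and the versican gene Vcan fell by 0.71 on the log2 scale. Fibroblast markers also fell: all 14 were tested, 12 fell and none rose, with sums of 520323 to 543186 in L1_sgRNA and 755692 to 810467 in Scr_sgRNA. Of these markers Col1a1, Col1a2, Col3a1, Dcn and Fn1 are also in the matrix substrate list, so the lists are not independent. Their part in the ADAMTS falls was not tested.

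**Figure D5:**
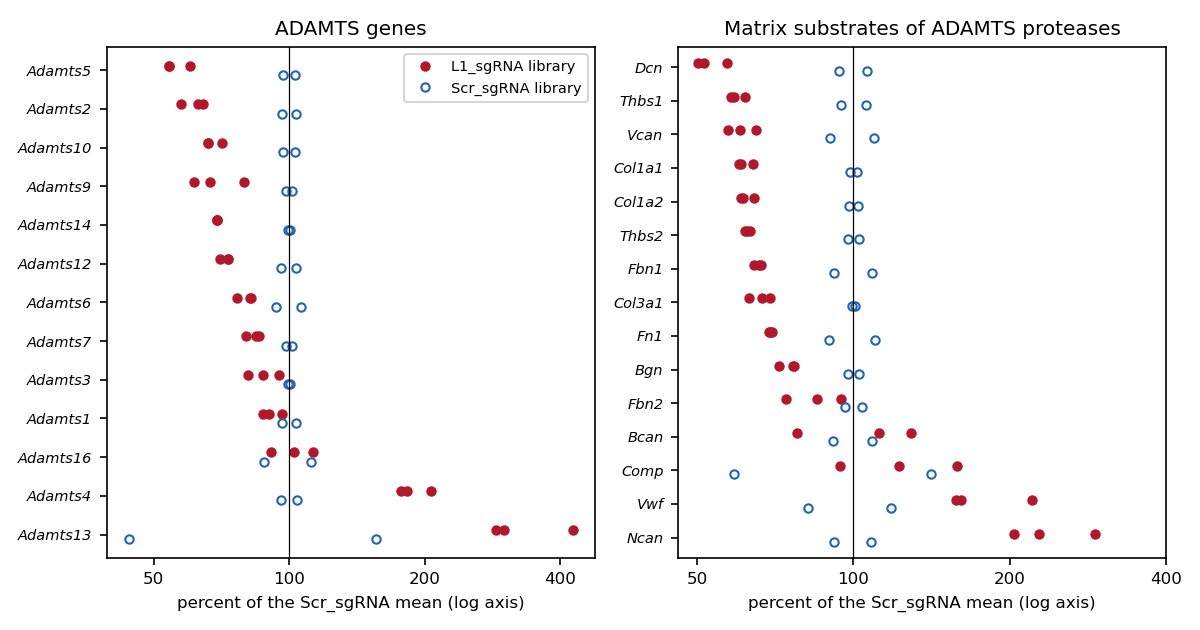
Value of each library as a percent of the Scr_sgRNA mean of that gene (log axis), for the 13 tested ADAMTS genes and the 15 tested matrix substrates; filled points are L1_sgRNA libraries and open points Scr_sgRNA libraries. Most filled points lie left of the open ones, and those of Adamts13, Adamts4, Ncan and Vwf lie to the right.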

How the data were processed

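RNA-seq of 5 libraries was used, 3 L1_sgRNA and 2 Scr_sgRNA. Per the labels, total RNA was extracted with an RNeasy kit and libraries were made with the NEBNext Ultra II RNA kit. Tools listed in the submitters' processing notes were SAMtools 1.9, STAR 2.5.3a, bedtools 2.27.1, DESeq2 and Bowtie2 2.2.9, and mm10 and GRCm38 the builds; strandedness and counting settings are not stated, so reads in overlapping genes cannot be assigned to either gene. The deposited values are a normalised signal made by the authors; in each library 100% of them are whole multiples of the smallest value, within 0.0001, which gave whole reads. The main test was limma 3.58.1 in R 4.3.3 on log2(value + 1), with a variance trend and no further scaling, for genes with a mean of at least 10, with Benjamini-Hochberg adjustment over 14337 genes. This unit calls for a log-scale test; edgeR 4.0.16 and DESeq2 1.42.0 on the recovered reads were alternatives. The members and gene lists were chosen with earlier results of these data known. Library values were named for members with a log2 change of at least 1, the most abundant members and low members higher in every L1_sgRNA library; others named with values were chosen after these were seen. From the gene lists, up to 4 genes with the smallest p were named, and some others beside them, such as Col1a1 and Vcan. Ratios of low genes carry exact 95% counting intervals, which cover counting error only. Positions, exon lengths and coding sequences come from GENCODE M21 and promoters from RefSeq. The fit was tested on simulated data.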

Additional observations from a re-analysis of the deposited data

How the results depend on the processing

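Over 15 alternatives the number of members past the threshold was 12 to 18, beside 16 (12 to 17 when 1 library was left out), that of pathway genes 36 to 41, beside 40, and that of all genes 4558 to 6573, beside 6243. Calls of Adam10, Adam12, Adam15, Adam19 and Adamts13 were lost without a variance trend, and Adam4, Adam5, Adam11 and Adamts9 passed there (limma adjusted p = 0.036, 0.036, 0.035 and 0.029), for which the cause was not tested. Adam33 passed without L1_sgRNA replicate 2 (0.041), Adamts9 with a pseudocount of 8 (limma adjusted p = 0.048), and with no filter Adamts19 and Adamts20 passed. Values near 0 changed sign: Adam17 was 0.010 with table totals and Adam22 -0.020 with the replicate block. With 1 library left out, Adam22 ranged from -0.083 to 0.14, Adam9 from -0.016 to 0.065, Adamts16 from -0.13 to 0.21 and Adam32 from -0.22 to 0.051. None of these passed. Libraries with the same replicate number did not deviate together (correlations of -0.008 and 0.066 over genes). With 2 Scr_sgRNA libraries both values rest on the same difference between them, so they cannot show whether the numbers pair libraries. With the replicate block 16 members and 6573 genes passed. Of all calls, 54.1% were rises in edgeR and 53.6% in DESeq2, beside 41.7% as deposited. With 2 Scr_sgRNA libraries the spread of that group rests on a single difference per gene, and of the low genes Adam2 and Adamts8 had counting intervals that include a ratio of 1.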

Other observations

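Some markers of other cell types rose, where 18.2% of all tested genes rose and 25.4% fell. Of 7 tested leukocyte markers 4 rose, among them the macrophage gene Adgre1 at 26.5 ± 6.61 in L1_sgRNA and 1.44 ± 0.53 in Scr_sgRNA. The list summed to 846 to 913 in L1_sgRNA and 731 to 804 in Scr_sgRNA. Cd68 rose, at 253 ± 14.2 in L1_sgRNA and 151 ± 14.7 in Scr_sgRNA, and Csf1r, the highest of the list, did not pass. Ptprc was called higher although its libraries overlapped between the groups. Epithelial markers summed to 123 to 125 in L1_sgRNA and 65.3 to 75.4 in Scr_sgRNA, with 1 rise of 3 tested, and endothelial markers to 103 to 152 in L1_sgRNA and 96.4 to 105 in Scr_sgRNA, with 1 rise of 4 tested. Neural markers summed to 7336 to 7599 in L1_sgRNA and 6359 to 6410.2 in Scr_sgRNA, and of 7 tested 3 rose and 2 fell. Map2, a neuronal microtubule protein gene, averaged 2168 ± 99.2 in L1_sgRNA and 328 ± 65.7 in Scr_sgRNA (log2 2.73, limma adjusted p = 4.1e-13). Tubb3 and Rbfox3 also rose. Snap25 fell, at 127 ± 35.6 in L1_sgRNA and 280 ± 7.27 in Scr_sgRNA. Syn1, the highest of the list, also fell, at 4563 ± 225 in L1_sgRNA and 5151 ± 66.6 in Scr_sgRNA. The sum therefore does not stand for the list as a whole.

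The 3 L1_sgRNA values of Adamts14 were nearly equal, with an SD of 0.13 around 1568, from 2032, 2320 and 1792 reads, while the median coefficient of variation of the members was 5.80% in L1_sgRNA and 5.41% in Scr_sgRNA. Adam11 was higher in every L1_sgRNA library but did not pass (log2 0.30, limma adjusted p = 0.239); beside it on chromosome 11, Ccdc43 rose (log2 0.61) and Gjc1 fell (log2 -0.34).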
